A study of Mus musculus with 22 samples.

Results

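The genes described here are 10 genes that hepatocytes around the central vein express under control of the Wnt pathway: *Glul*, *Oat*, *Slc1a2*, *Rhbg*, *Axin2*, *Rnf43*, *Znrf3*, *Lgr5*, *Tbx3* and *Lect2*. They were chosen by name and are the rows of the deposited count table that carry these symbols. The table lists 55573 genes, of which 14062 had a mean of at least 10 counts per library and were tested, and 10 of 10 of the chosen genes were among these. The study deleted *Flcn*, which encodes folliculin, a regulator of mTORC1 and AMPK signaling, in mouse liver and asked how this affects the liver disease caused by a methionine/choline deficient (MCD) diet. Liver mRNA of 22 mice was sequenced, 1 library per mouse. All mice were on the C57BL/6 background and carried 1 copy of Albumin-Cre, a transgene that expresses the Cre recombinase in hepatocytes. Whether other liver cells kept their *Flcn* was not tested. Cre mice had wild-type *Flcn* (*Flcn* WT/WT; Albumin-Cre+/-) and liver-*Flcn*-/- mice had floxed alleles (*Flcn* f/f; Albumin-Cre+/-, called knockout mice here and KO in the plots), from which Cre removes a single exon. There were 6 Cre mice and 5 knockout mice on chow, and 5 Cre mice and 6 knockout mice on the MCD diet. The 4 pairwise comparisons below share groups and are not independent of each other. The diets began at 6 weeks of age and lasted 6 weeks, and mice were 3 months old.

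In the liver lobule, blood flows from the portal vein to the central vein, and hepatocytes along this path express different genes. Endothelial cells of the central vein secrete Wnt ligands and R-spondin 3, which stabilise β-catenin in the nearest hepatocytes and switch on the pericentral program through transcription factors of the TCF/LEF family. Some of its genes take up ammonia and glutamate that periportal hepatocytes left behind and turn them into glutamine. Others act back on the pathway, either as receptors or as brakes, and are used as readouts of Wnt activity.

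Libraries held 13751347 to 21144388 counted reads, and levels below are CPM, the count of a gene relative to its library's size after edgeR's TMM scaling. Adjusted p is the two-sided quasi-likelihood p of edgeR after Benjamini-Hochberg adjustment over the 14062 tested genes, and a gene was called where it was under 0.05. The hepatocyte markers *Alb*, *Ttr*, *Apoa1*, *Apob* and *Serpina1c* were present in every library, with *Alb* most abundant. Their summed level was 127880 ± 18733 CPM in Cre mice on chow and 87098 ± 14369 CPM on MCD, and 106503 ± 19573 and 70447 ± 7637 CPM in knockout mice (SD), and its part in the falls with MCD described here was not tested. The libraries are of whole liver, in which fewer cells of a type and less RNA per cell cannot be told apart. *Flcn* itself had a mean of 31.7 ± 4.91 CPM in the 6 chow-fed Cre mice and 20.4 ± 2.78 CPM in the 5 chow-fed knockout mice (± SD), a log2 fold change of −0.63 (SE 0.173, adjusted p = 0.025 from edgeR). On MCD it had 29.2 ± 8.42 CPM (SD, n = 5) and 26.0 ± 5.13 CPM (SD, n = 6), a difference of −0.16 that did not pass (SE 0.170, adjusted p = 0.57 from edgeR). Counts over the whole gene report the loss of 1 exon only in part.

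Some libraries stood apart. One liver, Cre MCD 3, held RNA of skeletal muscle: its 8 muscle markers summed to 2031 CPM, against 13.8, 2.15, 104 and 1.08 CPM in the other Cre mice on MCD and at most 44.9 CPM in any knockout mouse. *Acta1*, the actin of skeletal muscle, was the most abundant of the 8, and 7 of the 8 had no count in at least 1 library. That liver had the highest value of the 5 Cre livers on MCD for 6 of the 10 genes (*Glul*, *Oat*, *Slc1a2*, *Rhbg*, *Lgr5* and *Rnf43*), and the part of the muscle RNA in this was not tested. The labels give no sex. Read from *Xist* and from Y-linked genes, 3 libraries of each group were female, and 3, 2, 2 and 3 were male in Cre mice on chow, Cre mice on MCD, knockout mice on chow and knockout mice on MCD. The 5 chow libraries read as male are also the 5 with a uniquely mapped share under 75%, so on chow sex and this share cannot be told apart.

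The 10 genes lie on 8 chromosomes of GRCm38 and all encode proteins. *Glul*, glutamine synthetase, which joins ammonia to glutamate, lies on chromosome 1 (153899944 to 153909723, plus strand), and *Slc1a2*, a glutamate transporter, on chromosome 2 (102658659 to 102790784, plus strand). *Oat*, ornithine aminotransferase, which feeds glutamate from ornithine, lies on chromosome 7 (132557478 to 132576398, minus strand), and *Rhbg*, an ammonium transporter, on chromosome 3 (88242874 to 88254709, minus strand). The brakes of the pathway are *Axin2*, a scaffold of the complex that degrades β-catenin (chromosome 11, 108920349 to 108950783, plus strand), and the ubiquitin ligases *Rnf43* (chromosome 11, 87662722 to 87735539, plus strand) and *Znrf3* (chromosome 11, 5276324 to 5444847, minus strand), which remove Frizzled receptors. *Lgr5*, a receptor for R-spondins, lies on chromosome 10 (115450311 to 115587780, minus strand). *Tbx3*, a transcription factor, lies on chromosome 5 (119670669 to 119684724, plus strand), and *Lect2*, which encodes a protein that hepatocytes secrete into blood, on chromosome 13 (56542464 to 56548502, minus strand).

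Levels between genes were compared as CPM per kilobase of exon. In Cre mice on chow *Oat* (475 ± 127), *Glul* (422 ± 46.1) and *Lect2* (253 ± 47.4) were far above the rest (SD, n = 6). *Glul* and *Oat* overlapped from mouse to mouse. *Slc1a2* followed with 12.8 ± 2.26, then *Tbx3* with 5.78 ± 1.57 and *Rnf43* with 3.63 ± 0.808 CPM per kilobase. The order ended with *Rhbg* (1.90 ± 0.214), *Axin2* (1.80 ± 0.203), *Znrf3* (1.15 ± 0.164) and *Lgr5* (0.699 ± 0.0943), where *Rhbg* and *Axin2* did not differ beyond their spread. On MCD the same 3 genes overlapped at the top in both genotypes: in Cre mice *Lect2* (294 ± 48.3), *Oat* (282 ± 159) and *Glul* (219.6 ± 70.1) (SD, n = 5), and in knockout mice *Glul* (175.5 ± 37.6), *Oat* (157 ± 66.7) and *Lect2* (149.5 ± 22.8) (SD, n = 6). The level of *Rhbg* per kilobase is uncertain, since 61.4% of its exonic length (1190 bases) is shared on the same strand with *Gm38392*, which has 0 counts in every library, and reads that fit both genes may not have been counted. *Tbx3* shares 115 exonic bases with *Tbx3os1* and *Glul* 116 with *Teddm2*, both on the opposite strand. Whether counting used the strand is not given in the sources used here.

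Promoters from 250 bases before to 50 bases after the transcript start were taken from RefSeq (GRCm38.p6) and searched for the TCF/LEF motif CTTTGAT on both strands (ATCAAAG on the other strand). RefSeq's table held 7 promoters of 6 of the 10 genes, those of *Glul*, *Axin2*, *Oat*, *Slc1a2*, *Lect2* and *Rnf43* (with 2 starts). *Rhbg*, *Lgr5*, *Tbx3* and *Znrf3* were not matched. The motif was in the promoters of *Slc1a2*, beginning 207 bases before the start, and *Lect2*, beginning 32 bases before it, both times as its reverse complement. Of all 32851 promoters of this length, 3.73% hold it. A match describes the letters of this window and is not a binding site. Shown 5′ to 3′ on the strand of the gene, with the motif in capitals, are these 2 promoters and that of *Glul*, the most used marker of pericentral hepatocytes, which has no match in this window. They span chr2:102706188-102706487 (*Slc1a2*, a start inside the annotated locus), chr13:56548489-56548788 (*Lect2*) and chr1:153899679-153899978 (*Glul*).
Slc1a2: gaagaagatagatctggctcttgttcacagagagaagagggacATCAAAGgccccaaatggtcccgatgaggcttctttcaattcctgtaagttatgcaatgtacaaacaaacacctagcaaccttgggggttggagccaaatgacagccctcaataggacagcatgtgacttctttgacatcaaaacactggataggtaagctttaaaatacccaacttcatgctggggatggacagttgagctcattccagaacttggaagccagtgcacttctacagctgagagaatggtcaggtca
Lect2: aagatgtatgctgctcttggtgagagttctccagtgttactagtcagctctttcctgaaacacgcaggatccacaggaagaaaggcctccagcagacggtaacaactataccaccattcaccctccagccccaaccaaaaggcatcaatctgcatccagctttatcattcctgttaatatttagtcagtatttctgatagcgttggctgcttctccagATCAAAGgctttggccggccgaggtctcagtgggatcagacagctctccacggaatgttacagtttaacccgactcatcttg
Glul: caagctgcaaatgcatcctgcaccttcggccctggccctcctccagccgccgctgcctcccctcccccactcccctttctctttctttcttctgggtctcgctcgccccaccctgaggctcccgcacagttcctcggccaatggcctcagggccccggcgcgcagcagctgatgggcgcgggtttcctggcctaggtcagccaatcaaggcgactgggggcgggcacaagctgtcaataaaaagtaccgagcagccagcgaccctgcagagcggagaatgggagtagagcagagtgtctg

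**Figure D1:**
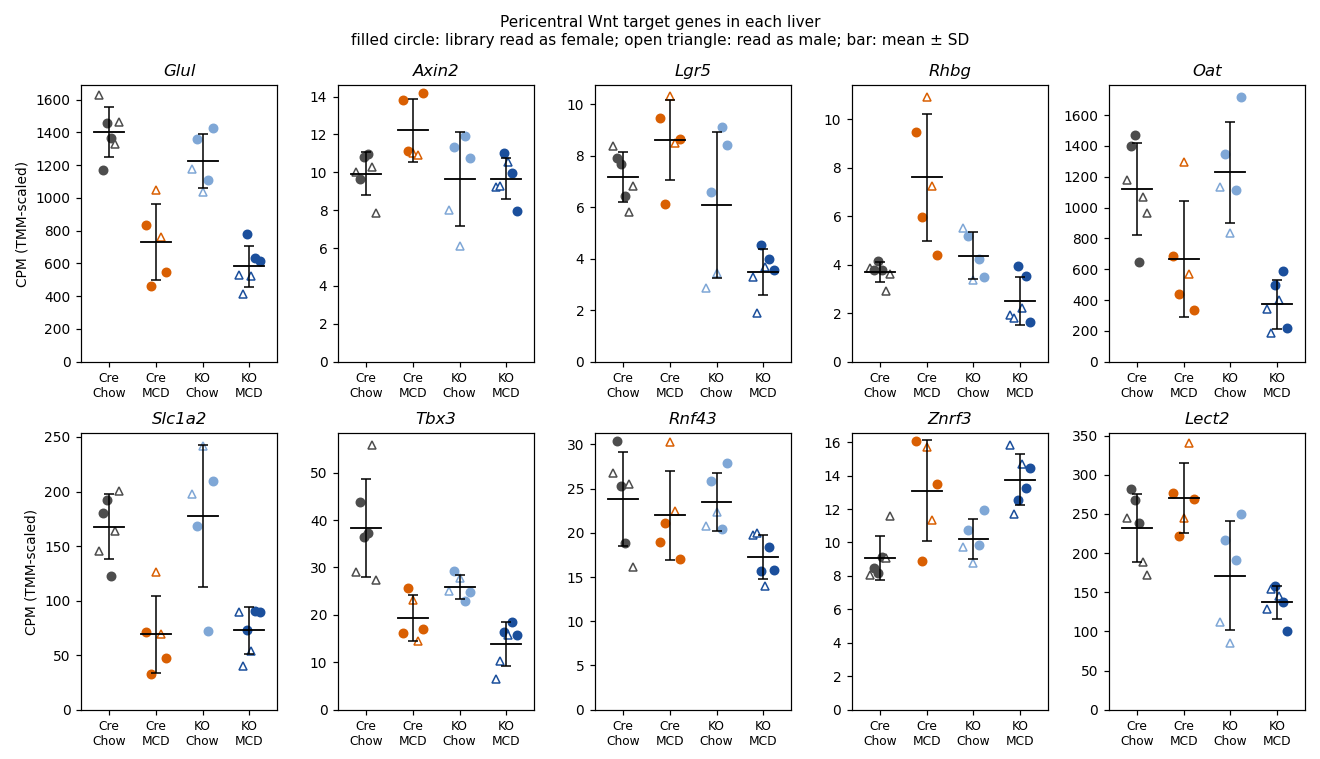
Each panel plots 1 gene, with CPM on the vertical axis from 0 and the 4 groups on the horizontal axis. Points are mice (filled circles read as female, open triangles as male) and bars are the mean ± SD. *Glul*, *Slc1a2* and *Tbx3* were called lower on MCD in both genotypes, while *Rhbg*, *Lgr5* and *Lect2* were separated between the genotypes on MCD alone. *Oat* and *Rnf43* had lower means on MCD in both genotypes and were called in knockout mice only.

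The first comparison asked how the MCD diet changed these genes in Cre mice. The response was mixed: *Glul*, *Slc1a2* and *Tbx3* fell to between 0.413 and 0.521 of their level on chow, *Rhbg* rose 2.06-fold and *Znrf3* rose 1.44-fold. The remaining 5 genes did not pass. In all, 5 of the 10 genes were called in a comparison where 57.5% of all tested genes were called (29.3% upward, 28.2% downward), so the share is near the background. Their median log2 fold change came to 0.05, against 0.012 over all tested genes.

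Among the genes of glutamine synthesis, *Glul* ranged from 1169.6 to 1627 CPM in Cre mice on chow (median 1410.4), and had 831, 461, 1048, 759.7 and 549.7 CPM in the 5 Cre mice on MCD. All mice on MCD were below all mice on chow, with a log2 fold change of −0.94 (SE 0.178, adjusted p = 0.00013 from edgeR). Its uptake partner *Slc1a2* ranged from 123 to 200.5 CPM on chow (median 172) and had 71.2, 33.0, 126, 69.0 and 47.2 CPM on MCD. Only Cre MCD 3 reached into the range of the chow mice. The log2 fold change of *Slc1a2* was −1.28 (SE 0.306, adjusted p = 0.0013 from edgeR).

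*Oat* ranged from 649 to 1469 CPM on chow (median 1122) and had 686, 438, 1295, 569 and 338 CPM on MCD. Again Cre MCD 3 was high, among the upper values of the chow mice. The log2 fold change of *Oat* was −0.75 (SE 0.322) and did not pass (adjusted p = 0.051 from edgeR). It lay near the threshold, and 5 of 22 fits with 1 library left out and 5 of 13 other alternatives passed (adjusted p 0.0029 to 0.75 over all alternatives). The change was −1.14 without Cre MCD 3, −0.87 without Cre Chow 4 and −0.57 without Cre MCD 5, and of these the first and the second passed. Leaving out knockout MCD 2, 5 or 6 also brought it past the threshold at an unchanged −0.75. *Rhbg* moved the other way, from between 2.91 and 4.14 CPM on chow (median 3.77) to 9.47, 5.95, 10.9, 7.23 and 4.41 CPM on MCD. Every mouse on MCD was above every mouse on chow, and the log2 fold change came to 1.04 (SE 0.238, adjusted p = 0.00080 from edgeR).

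Of the other genes, the transcription factor *Tbx3* fell by 0.99 on the log2 scale (SE 0.224, adjusted p = 0.00075 from edgeR), from 38.3 ± 10.4 CPM (SD, n = 6) to 19.3 ± 4.85 CPM (SD, n = 5), and its groups did not overlap. With *Glul* and *Rhbg* this makes 3 of the 10 genes whose groups did not overlap, against 32.5% of all tested genes. The Frizzled-removing ligase *Znrf3* rose by 0.53 (SE 0.136, adjusted p = 0.0021 from edgeR), from 9.08 ± 1.30 to 13.1 ± 3.01 CPM. Its partner *Rnf43* had 23.8 ± 5.30 and 22.0 ± 5.07 CPM, a difference of −0.12 that did not pass (adjusted p = 0.54 from edgeR). The differences of *Axin2* (0.30), *Lgr5* (0.26) and *Lect2* (0.22) did not pass either, with adjusted p of 0.081, 0.37 and 0.39 from edgeR. Scaled by library totals without TMM, where the median gene shifted by 0.43 and 9648 of 14062 genes were called, they were 0.71, 0.68 and 0.63 and passed (adjusted p 0.00029 to 0.85 over all alternatives of the 3 genes). *Axin2* also passed without knockout Chow 3 and in a fit of only the groups compared, at an unchanged 0.30.

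The same diet was then compared within knockout mice. Here 7 of the 10 genes fell (*Oat*, *Slc1a2*, *Glul*, *Tbx3*, *Lgr5*, *Rhbg* and *Rnf43*) and *Znrf3* rose, while *Axin2* and *Lect2* did not pass. Over all tested genes 45% were called, 22.5% upward and 22.5% downward. The median log2 fold change of the 10 genes was −0.81, against 0.004 over all tested genes. *Glul*, *Slc1a2*, *Tbx3* and *Znrf3* were called in the same direction in both genotypes, and *Rhbg* in opposite directions.

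*Oat* had the largest change, from 1133, 1346, 833, 1115 and 1717 CPM in the 5 mice on chow to between 185 and 591 CPM on MCD (median 369.6). The groups were far apart, with a log2 fold change of −1.73 (SE 0.322, adjusted p = 0.00017 from edgeR). *Glul* had 1178, 1359, 1038, 1110 and 1426 CPM on chow and 415 to 782 CPM on MCD (median 572), again without overlap. The log2 fold change came to −1.07 (SE 0.175, adjusted p = 4.2e-05 from edgeR), close to that in Cre mice. *Slc1a2* changed by −1.29 (SE 0.299, adjusted p = 0.0014 from edgeR), with 1 chow mouse at 71.7 CPM inside the range of the MCD mice. *Tbx3* changed by −0.90 (SE 0.222, adjusted p = 0.0022 from edgeR) and its groups did not overlap.

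*Rhbg*, which rose in Cre mice, had 5.53, 5.17, 3.36, 4.25 and 3.50 CPM in knockout mice on chow and 1.62 to 3.95 CPM on MCD (median 2.06). The groups overlapped in part, and the log2 fold change came to −0.80 (SE 0.244, adjusted p = 0.010 from edgeR). The receptor *Lgr5* had 2.88, 6.60, 3.43, 9.10 and 8.41 CPM on chow and 1.89 to 4.54 CPM on MCD (median 3.63). Both chow mice with low values, knockout Chow 1 and 3, were read as male and had a low uniquely mapped share. The log2 fold change of *Lgr5* was −0.81 (SE 0.250, adjusted p = 0.011 from edgeR). Without knockout Chow 4, which had the highest *Lgr5* value, it was −0.62 and did not pass (adjusted p = 0.054, and 0.00019 to 0.82 over all alternatives).

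The ligases moved in opposite directions. *Rnf43* fell from 23.5 ± 3.28 CPM (SD, n = 5) to 17.3 ± 2.46 CPM (SD, n = 6), a log2 fold change of −0.44 (SE 0.157, adjusted p = 0.026 from edgeR), and *Znrf3* rose from 10.2 ± 1.19 to 13.7 ± 1.52 CPM, a log2 fold change of 0.43 (SE 0.136, adjusted p = 0.014 from edgeR). The groups of *Rnf43* did not overlap, as for *Oat*, *Glul* and *Tbx3*, which makes 4 of the 10 genes, all lower on MCD, against 29.2% of all tested genes (14.8% lower). Leaving out knockout Chow 2 or 5 or knockout MCD 4 ended the call of *Rnf43*, whose adjusted p ranged from 0.0064 to 0.44 over all alternatives. The call of *Znrf3* was lost without the low-mapped chow libraries (0.34), in females alone (0.30) and in males alone (0.59), with adjusted p from 0.00015 to 0.19 over all alternatives. *Axin2* was level in its means at 9.63 ± 2.47 and 9.67 ± 1.09 CPM, with a 95% interval of the log2 fold change from −0.30 to 0.30. With the sexes fitted apart its values had opposite signs, −0.23 in females and 0.44 in males. Neither passed (adjusted p = 0.21 and 0.12 from edgeR). *Lect2* had 171 ± 69.8 and 137 ± 20.99 CPM, a difference of −0.32 that did not pass (adjusted p = 0.23 from edgeR). It passed without knockout Chow 3 (−0.49), without the low-mapped chow libraries (−0.67), with the uniquely mapped share as covariate (−0.52) and in females alone (−0.73), with adjusted p from 0.0010 to 0.85 over all alternatives. Scaled by library totals without TMM, where the median gene shifted by 0.27 on the log2 scale, the calls of *Lgr5* (−0.56), *Rhbg* (−0.54) and *Rnf43* (−0.18) were lost.

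**Figure D2:**
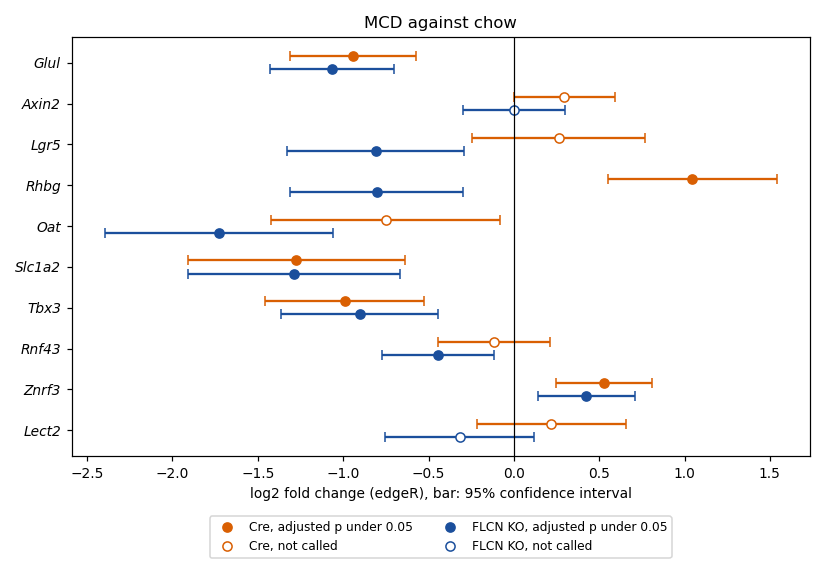
The horizontal axis is the log2 fold change of MCD against chow from edgeR, with 1 row per gene, orange for Cre mice and blue for knockout mice. Bars are 95% confidence intervals and filled points were called at an adjusted p under 0.05. *Rhbg* lies at 1.04 in Cre mice and −0.80 in knockout mice, and *Glul*, *Slc1a2* and *Tbx3* lie close together in both.

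On chow, the genotypes were compared to see whether loss of *Flcn* by itself changed these genes. None of the 10 was called in edgeR, and 2 had an unadjusted p under 0.05, *Tbx3* and *Lect2*. Over all tested genes 8.62% were called. *Tbx3* had 38.3 ± 10.4 CPM in Cre mice and 25.9 ± 2.56 CPM in knockout mice (log2 fold change −0.56, 95% interval −1.03 to −0.10, adjusted p = 0.12 from edgeR). *Lect2* had 232 ± 43.6 and 171 ± 69.8 CPM (−0.44, 95% interval −0.88 to −0.0017, adjusted p = 0.21 from edgeR). The remaining 8 genes differed by between −0.23 and 0.24 on the log2 scale. The 95% interval of the difference was −0.56 to 0.17 for *Glul* and −0.34 to 0.26 for *Axin2*. DESeq2 and limma-voom also called 0 of the 10. *Lect2* alone was called with the uniquely mapped share as a covariate (−0.64) and in males alone (−1.01), with adjusted p from 0.014 to 0.48 over all alternatives.

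On the MCD diet, 3 of the 10 genes were lower in knockout mice than in Cre mice: *Rhbg*, *Lgr5* and *Lect2*. All 3 were separated without overlap, where 8.61% of all tested genes were (3.53% lower), and 16.6% of all tested genes were called (8.53% downward). None of the 10 genes was called higher. The median log2 fold change came to −0.41, against −0.014 over all tested genes. These are an ammonium transporter, a receptor and a secreted protein, and *Glul*, the best known marker of the same zone, was not called.

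*Rhbg* had 9.47, 5.95, 10.9, 7.23 and 4.41 CPM in the Cre mice and between 1.62 and 3.95 CPM in the knockout mice (median 2.06). Even the lowest Cre mouse was above the highest knockout mouse. The log2 fold change came to −1.61 (SE 0.240, adjusted p = 0.00010 from edgeR), 3.04-fold lower. *Lgr5* had 9.47, 6.12, 10.3, 8.49 and 8.66 CPM in the Cre mice and between 1.89 and 4.54 CPM in the knockout mice (median 3.63). It was 2.46-fold lower, with a log2 fold change of −1.30 (SE 0.247, adjusted p = 0.0010 from edgeR).

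*Lect2* had 277, 222, 245, 340.2 and 268 CPM in the Cre mice and between 100.5 and 158 CPM in the knockout mice (median 141). It was 1.97-fold lower, with a log2 fold change of −0.98 (SE 0.211, adjusted p = 0.0029 from edgeR). *Lect2* rests on the most reads of these 3 genes and had 2106 to 7013 counts per library on MCD, while *Rhbg* had 34 to 233 and *Lgr5* 44 to 230. The 3 calls held in every alternative, with log2 fold changes from −2.21 to −1.14 for *Rhbg*, −1.68 to −1.0 for *Lgr5* and −1.04 to −0.88 for *Lect2*. Without Cre MCD 3 they were −1.44, −1.23 and −1.01.

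The other 7 genes did not pass on MCD. *Oat* was −0.84 lower (SE 0.318, adjusted p = 0.075 from edgeR), with values of 665 ± 376 CPM in Cre mice (SD, n = 5) and 371 ± 157 CPM in knockout mice (SD, n = 6). Here single livers mattered: the difference was −0.45 without Cre MCD 3, and it passed without Cre MCD 5 (−1.01) or knockout MCD 5 (−1.02) and in males alone, with adjusted p from 0.031 to 0.81 over all alternatives. *Glul* had 729.9 ± 233 and 583 ± 125 CPM, a difference of −0.32 (95% interval −0.69 to 0.04, adjusted p = 0.22 from edgeR). *Axin2*, a general readout of β-catenin activity, had 13.8, 11.1, 11.02, 10.9 and 14.2 CPM in Cre mice and 7.97 to 11.03 CPM in knockout mice (median 9.63), groups that barely overlapped, with a difference of −0.34 (SE 0.142, adjusted p = 0.11 from edgeR). It passed without the low-mapped chow libraries (adjusted p = 0.028, and 0.028 to 0.64 over all alternatives). The differences of *Tbx3* (−0.48) and *Rnf43* (−0.35) had adjusted p of 0.15 and 0.14 from edgeR, and those of *Slc1a2* and *Znrf3* were 0.07 each.

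**Figure D3:**
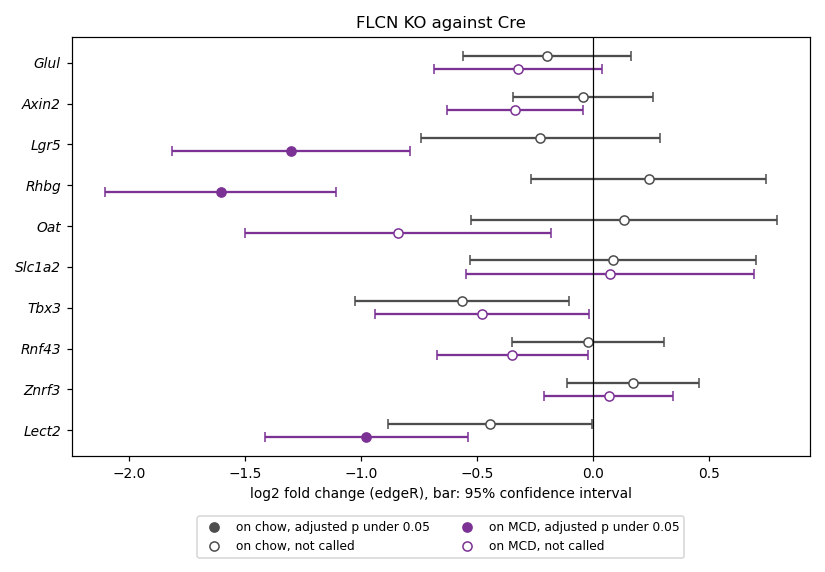
The horizontal axis is the log2 fold change of knockout against Cre mice from edgeR, with 1 row per gene, grey on chow and purple on MCD. Bars are 95% confidence intervals and filled points were called. On MCD *Rhbg* (−1.61), *Lgr5* (−1.30) and *Lect2* (−0.98) were called, and no gene was called on chow.

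Whether the diet acted differently in the genotypes was tested with the interaction term. It passed for 1 of the 10 genes, *Rhbg*, where 8.83% of all tested genes passed (5.54% with a lower response). Its log2 response to MCD was 1.85 smaller in knockout than in Cre mice (interaction −1.85, SE 0.341, adjusted p = 0.0027 from edgeR). The value for *Lgr5* was −1.07 (SE 0.349, adjusted p = 0.058 from edgeR) and did not pass, although it did without Cre MCD 2, knockout Chow 1 or knockout Chow 3, without the low-mapped chow libraries, in females alone, with DESeq2 and with library totals without TMM (adjusted p 0.014 to 0.72 over all alternatives). For *Lect2* it was −0.53 and for *Oat* −0.98, with adjusted p of 0.28 and 0.18 from edgeR. The interactions of *Glul* (−0.13, 95% interval −0.64 to 0.39), *Slc1a2* (−0.01, −0.89 to 0.86) and *Tbx3* (0.09, −0.56 to 0.74) did not pass, and their intervals are wide. With the sexes fitted apart that of *Slc1a2* was 0.88 in females and −1.08 in males, and neither passed (adjusted p at least 0.28 over all alternatives). The median over the 10 genes was −0.31, against 0.030 over all tested genes.

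Since sex and the uniquely mapped share went together on chow, females and males were also fitted apart, a choice made after seeing the data. On MCD, where no library had a low mapped share, *Rhbg*, *Lgr5* and *Lect2* were lower in knockout mice in either sex. In females the log2 fold changes came to −1.14, −1.0 and −0.95, and in males −2.21, −1.68 and −1.04. All 6 passed (adjusted p at most 0.030 from edgeR). *Glul* on MCD had 614 CPM in Cre females and 677 CPM in knockout females (means of 3 and 3 mice), but 904 CPM in Cre males and 489 CPM in knockout males (means of 2 and 3). The difference was 0.14 in females and −0.90 in males, where the second passed (adjusted p 0.022, and 0.022 to 0.68 over all alternatives). *Oat* was −0.17 in females and −1.61 in males on MCD, where the second passed (adjusted p 0.031, and 0.031 to 0.81 over all alternatives), and its response to MCD in Cre mice was −1.27 in females, which passed, and −0.18 in males. Over all genes 687 of 14062 were called between genotypes on MCD in males and 2109 in females. Whether the sexes differ in these genes was not tested. The 2 Cre males on MCD are Cre MCD 3 and 4, the livers of their group with the most muscle RNA (2031 and 104 CPM), so sex and muscle RNA cannot be told apart in the male values.

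In knockout mice on chow, *Lgr5* was 6.60, 9.10 and 8.41 CPM in the females and 2.88 and 3.43 CPM in the males, and *Lect2* was 216, 192 and 249.8 CPM in the females and 112 and 85.6 CPM in the males. The sexes did not overlap for either gene. Nor did they for *Axin2* (10.8 to 11.9 CPM in females and 6.1 to 8.0 CPM in males) and *Znrf3* (9.87 to 11.96 CPM and 8.80 to 9.73 CPM). In Cre mice on chow *Lgr5* averaged 7.33 CPM in females and 7.01 CPM in males, and *Lect2* 263 and 202 CPM. In females alone *Lgr5* (−0.99) and *Lect2* (−0.73) fell with MCD in knockout mice and both passed, while in males alone their values were −0.11 and 0.52 and neither passed. *Rhbg* rose with MCD by 0.77 in Cre females, which did not pass (adjusted p = 0.056 from edgeR), and by 1.41 in Cre males, which did. In knockout mice its log2 response to MCD was −0.51 in females and −1.18 in males, and only that in males passed. The interaction of *Rhbg* was −1.28 in females, which did not pass, and −2.59 in males, which did (adjusted p 2.0e-05 to 0.099 over all alternatives). That of *Lgr5* was −1.13 in females, which passed (adjusted p = 0.022 from edgeR, and 0.014 to 0.72 over all alternatives), and −0.56 in males, which did not, so the gene called was *Lgr5* in females and *Rhbg* in males. In males alone the calls of *Slc1a2* (−0.78), *Tbx3* (−0.97) and *Znrf3* (0.52) in Cre mice were lost. That of *Rnf43* in knockout mice was lost in males too (−0.29, adjusted p = 0.44 from edgeR), while in females it passed (−0.57). In females alone the call of *Slc1a2* in knockout mice (−0.83) was lost.

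How the 10 genes varied together from mouse to mouse, once group means were removed, is a description over 22 libraries that share depth and scaling. Differences by sex and by uniquely mapped share within groups were not removed, and their part in these correlations was not tested. The highest correlations of log2 CPM were between *Axin2* and *Lect2* (0.78), *Rhbg* and *Oat* (0.73), *Glul* and *Oat* (0.70) and *Glul* and *Rhbg* (0.68). The lowest was between *Axin2* and *Slc1a2* (−0.43), and *Glul* and *Axin2* had 0.16. Outside the list, the 5 genes most like *Glul* were *Thrb* (0.83), a thyroid hormone receptor, *Jmy* (0.82), *Slc22a23* (0.81), *Dmgdh* (0.81), an enzyme of choline breakdown, and *Slco2b1* (0.81), an organic anion transporter. Those most like *Axin2* were *Smad6* (0.79), an inhibitor of BMP signaling, *Megf6* (0.79), *Prom2* (0.79), *Kazn* (0.78) and *Foxf1* (0.78), a transcription factor of mesenchymal cells.

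Upstream of these genes, 10 of 25 Wnt ligands, R-spondins and secretion factors had enough counts to be tested. With MCD 57.5% of all tested genes were called in Cre mice (29.3% upward) and 45% in knockout mice (22.5% upward). Of these 10 genes 6 rose and 1 fell in Cre mice, and 1 rose and 1 fell in knockout mice. *Rspo3* had the highest mean CPM of them in Cre mice on either diet and in knockout mice on chow, and *Wnt4* in knockout mice on MCD. *Wnt4* had 2.09 to 4.32 CPM in Cre mice on chow (median 2.91), and 5.76, 8.92, 7.64, 6.31 and 7.12 CPM on MCD. In knockout mice it had 4.28, 3.45, 2.62, 7.44 and 6.04 CPM on chow and 15.1 to 50.5 CPM on MCD (median 29.4). Every knockout mouse on MCD was above every mouse of the other groups. The log2 response to MCD was 1.22 in Cre and 2.75 in knockout mice, 2.17 between the genotypes on MCD, and the interaction was 1.53 (adjusted p = 0.021 from edgeR).

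*Wnt2*, a ligand of liver endothelial cells, was lower in knockout mice on MCD (2.47 ± 0.286 against 4.60 ± 1.57 CPM, log2 fold change −0.90, adjusted p = 0.0054 from edgeR). *Rspo3*, which signals through LGR receptors, rose with MCD in Cre mice from 9.74 ± 2.65 to 16.9 ± 2.92 CPM (0.79, adjusted p = 0.00021 from edgeR), and had 9.82 ± 1.66 and 12.4 ± 1.55 CPM in knockout mice. *Wnt5a* rose in Cre mice (0.98), and *Wnt5b* fell in both genotypes (−0.68 and −0.47). Which cells made these ligands was not measured, and the 7 endothelial markers are given beside them. They summed to 189 ± 37.0 CPM in Cre mice on chow and 154 ± 19.8 CPM on MCD, and to 229 ± 22.1 and 177 ± 8.28 CPM in knockout mice. *Clec4g* had the highest mean CPM of the 7 in Cre mice on chow (54.6) and *Stab2* in the other groups (45.4 to 70.8), and none was at 0 in any library. In Cre mice on MCD the sums were 159.8, 144, 177, 166 and 126 CPM, and in knockout mice on MCD they lay between 170.5 and 192 CPM (median 174). Of the 7, 1 was called higher and 1 lower between the genotypes on MCD (8.06% and 8.53% of all tested genes). The part of these markers in the ligand values was not tested. The 8 markers of stellate cells, with *Dcn* most abundant and none at 0, summed to 362 ± 88.0 and 624 ± 140 CPM in Cre mice on chow and MCD and to 406 ± 79.4 and 435 ± 42.6 CPM in knockout mice. Of the 8, 5 rose and 1 fell in Cre mice on MCD and 4 were lower in knockout mice on MCD, and their part was not tested either. The highest stellate sum, 834 CPM, was that of Cre MCD 3, where *Des*, which muscle expresses as well, had 146 CPM against 5.99 to 15.3 CPM in the other 4 Cre mice on MCD. Other marker lists moved with MCD as well, where 57.5% of all tested genes were called in Cre mice and 45% in knockout mice. Neutrophil markers summed to 5.89 ± 2.84 and 31.9 ± 17.0 CPM in Cre mice on chow and MCD (4 of 4 rose), and to 6.33 ± 2.11 and 18.0 ± 5.67 CPM in knockout mice (3 of 4 rose). Proliferation markers summed to 9.91 ± 3.56 and 50.6 ± 39.0 CPM in Cre mice (5 of 5 rose), and to 19.2 ± 4.49 and 18.4 ± 18.6 CPM in knockout mice (0 of 5 called in edgeR, and 0 at an unadjusted p under 0.05). Bile duct markers summed to 64.1 ± 18.0 and 141 ± 22.9 CPM in Cre mice (3 of 5 rose), and to 124 ± 47.3 and 119 ± 21.9 CPM in knockout mice (0 of 5 called in edgeR, and 0 at an unadjusted p under 0.05). Markers of Kupffer cells and macrophages summed to 383 ± 70.6 and 491 ± 98.7 CPM in Cre mice (3 of 7 rose and 1 fell), and to 411 ± 56.0 and 438 ± 127 CPM in knockout mice (2 rose and 2 fell). Of 4 lymphocyte markers tested, 3 fell in knockout mice, where the 5 listed summed to 5.65 ± 0.441 CPM on chow and 2.95 ± 0.747 CPM on MCD. In Cre mice the 5 summed to 2.97 ± 1.45 and 3.43 ± 1.70 CPM (0 of 4 called in edgeR, and 0 at an unadjusted p under 0.05). The part of these lists in the values of ligands and Wnt targets was not tested.

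**Figure D4:**
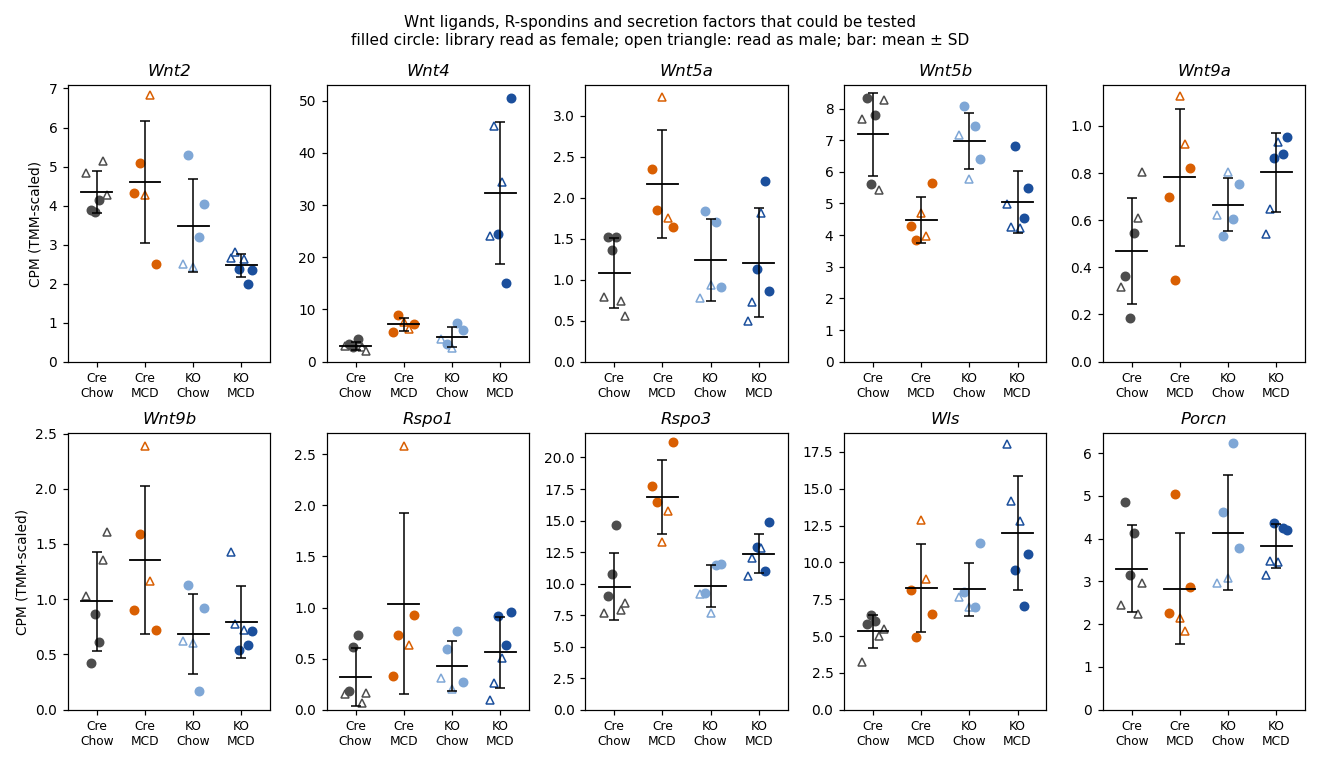
Each panel plots 1 of the 10 ligand and secretion genes that could be tested, with CPM on the vertical axis from 0 and the 4 groups on the horizontal axis. Points are mice (filled circles read as female, open triangles as male) and bars are the mean ± SD. *Wnt4* was at 15.1 to 50.5 CPM in knockout mice on MCD and at most 8.92 CPM in any other mouse.

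Of 11 Wnt receptors and co-receptors that could be tested, 6 fell with MCD in Cre mice, and 5 fell and 2 rose in knockout mice. Over all tested genes 57.5% were called in Cre mice (28.2% downward) and 45% in knockout mice (22.5% downward). The Frizzled receptors *Fzd8* (−1.34 and −1.40) and *Fzd7* (−1.33 and −1.34), the R-spondin receptor *Lgr4* (−1.19 and −0.91) and *Ror1* (−1.14 and −1.26) fell in both genotypes without overlap between the groups. *Lrp5*, the most abundant of the list, fell in both as well. None of the 11 was called between the genotypes on either diet in edgeR (2 on chow and 0 on MCD at an unadjusted p under 0.05). Of all tested genes 8.62% were called on chow and 16.6% on MCD. Of 11 genes listed as Wnt inhibitors or their receptors, 2 could be tested. *Frzb*, a secreted protein that binds Wnt ligands, rose in Cre mice from 1.07 ± 0.348 to 4.28 ± 0.893 CPM (1.98) and was lower in knockout mice on MCD (2.07 ± 0.359 CPM, −1.04), with an interaction of −1.58 (adjusted p = 0.0090 from edgeR). *Kremen1*, a membrane receptor for the DKK inhibitors and the gene with the higher CPM, was called in no comparison.

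Inside the cell, 17 of 18 genes of β-catenin, its destruction complex and its nuclear partners were tested. In Cre mice 2 rose and 5 fell with MCD, where 57.5% of all tested genes were called. In knockout mice 3 rose and 2 fell, where 45% of all tested genes were called. *Tcf7l2*, the main TCF factor of hepatocytes, fell in both (−0.58 and −0.30), *Gsk3b*, a kinase that marks β-catenin for degradation, rose in both (0.42 and 0.37), and *Ctnnb1*, β-catenin itself, fell in Cre mice (−0.30). *Btrc* fell in Cre mice (−0.46), and *Axin1* rose (0.30) and *Bcl9l* fell (−0.28) in knockout mice. On MCD *Bcl9l*, a coactivator of β-catenin, was lower in knockout than in Cre mice (34.5 ± 3.78 against 49.1 ± 5.17 CPM, −0.51, adjusted p = 0.0039 from edgeR) and *Btrc* higher (0.28). *Pygo1*, a low gene whose groups overlapped, had the largest diet values of the list and did not pass (0.98 with SE 0.574 in Cre and 0.64 with SE 0.595 in knockout mice). No gene of the list passed on chow in edgeR, where 8.62% of all tested genes did and 2 of the list had an unadjusted p under 0.05.

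Of 10 further Wnt target and feedback genes that could be tested, 5 rose and 2 fell in Cre mice on MCD, and 1 rose and 2 fell in knockout mice. Over all tested genes 57.5% were called in Cre mice and 45% in knockout mice. *Notum*, a secreted enzyme that inactivates Wnt ligands, fell in both. It ranged from 36.4 to 45.6 CPM in Cre mice on chow (median 43.5) and had 17.4, 9.35, 15.3, 15.9 and 19.1 CPM on MCD. In knockout mice it had 41.9, 46.8, 28.9, 45.2 and 53.6 CPM on chow and 13.7 to 23.1 CPM on MCD (median 17.9). The groups were separate in both genotypes (−1.47 and −1.28). *Ccnd1*, cyclin D1, the most abundant of the list, rose in Cre mice (2.24) and was higher in knockout mice on chow (1.10), with an interaction of −1.94 (adjusted p = 0.016 from edgeR). *Myc* rose in both (1.94 and 1.27). *Dkk3* rose in Cre mice (1.72), and *Dkk3* (−0.78) and *Sp5* (−0.64), a direct β-catenin target, were lower in knockout mice on MCD.

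Pericentral hepatocytes also express many genes of drug metabolism. With MCD 57.5% of all tested genes were called in Cre mice (28.2% downward) and 45% in knockout mice (22.5% downward). Their median log2 fold changes were 0.012 and 0.004. Of 20 other pericentral genes 11 fell and 2 rose with MCD in Cre mice, and 13 fell and 1 rose in knockout mice, with medians of −0.44 and −0.79. The cytochrome *Cyp2c54* fell most, from between 207 and 321 CPM (median 257) to 2.31, 0.819, 4.41, 1.12 and 2.20 CPM in Cre mice. In knockout mice it fell from 137, 423, 144, 208 and 262 CPM to between 0.603 and 3.68 CPM (median 2.46). No mouse on MCD came near the chow range (−6.93 and −6.66). *Cyp2c29* (−2.71 and −2.19), *Cyp2c50* (−2.20 and −2.50) and *Rgn* (−2.51 and −3.03) fell in both genotypes too. *Cyp2c54* and *Cyp2c50* belong to a family of near-identical genes whose reads may be shared or lost in counting. *Cyp2e1*, the most abundant pericentral gene, was not called with MCD in either genotype.

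On MCD, 5 of these 20 genes were lower in knockout mice and 0 higher, against 8.53% and 8.06% of all tested genes. The 4 with the largest differences were *Cyp2a5* (−1.45), *Gulo* (−1.06), *Rgn* (−0.99) and *Cyp2e1* (−0.64). *Gulo*, the last enzyme of vitamin C synthesis, had 540.5 ± 54.0 CPM in Cre mice (SD, n = 5) and 258 ± 16.9 CPM in knockout mice (SD, n = 6), and its interaction passed (−0.95, adjusted p = 0.00076 from edgeR). On chow *Slc13a3* (1.03) and *Cldn2* (0.40) were higher and *Cyp2a5* (−1.59) and *Akr1c6* (−0.44) lower. The median of the 20 genes between genotypes was already −0.26 on chow, against −0.33 on MCD, and that of the interaction was −0.023. At an unadjusted p under 0.05 from edgeR were 11 of the 20 on chow and 8 on MCD, against 3310 and 4196 of all 14062 tested genes. *Cyp2e1* had 6919 ± 1267 CPM in Cre and 4789 ± 1191 CPM in knockout mice on chow (SD), where it was not called. Of 18 periportal genes on MCD, 6 were higher in knockout mice, 1 was lower and 11 did not pass, with a median of 0.29, where 8.06% of all tested genes were called higher. The interaction passed for 6 of the 18, all of them positive, against 3.29% of all tested genes. Whether the periportal and pericentral lists differ was not tested. *Etnppl* (1.37), *Pigr* (1.37) and the lipid droplet enzyme *Hsd17b13* (0.94) were higher and *Pck1* (−0.85) was lower. With MCD itself 28.2% of all tested genes were called downward in Cre mice and 22.5% in knockout mice. Of the 18 periportal genes 13 fell and 1 rose in Cre mice (*Aldh1b1*, 0.72), and 10 fell and 2 rose in knockout mice (*Sdsl*, 1.13, and *Hsd17b13*, 0.90). Among those that fell were *Sds* (−2.26), *Pigr* (−2.07), *Cyp2f2* (−1.96) and *Hal* (−1.86) in Cre mice. In knockout mice *Gls2* (−1.40), *Uroc1* (−1.25), *Cyp2f2* (−1.16) and *Ass1* (−1.15) fell most. *Cps1*, the first enzyme of the urea cycle and the most abundant periportal gene, fell in both. On chow 1 was higher in knockout mice, *Cdh1* (1.37), and 2 lower, among them *Pck1* (−0.89), where 8.62% of all tested genes were called.

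**Figure D5:**
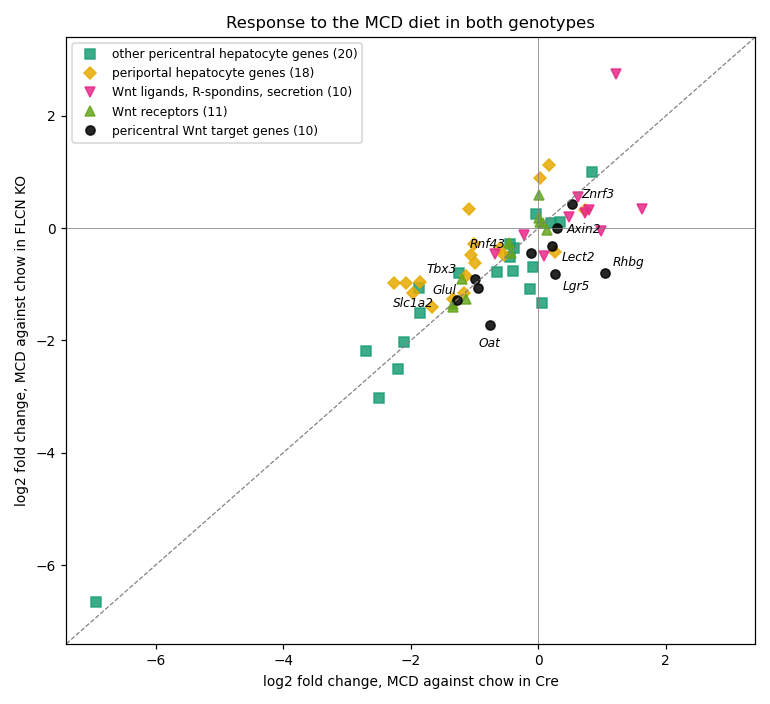
The horizontal axis is the log2 fold change of MCD against chow in Cre mice and the vertical axis that in knockout mice, both from edgeR. Each point is a gene, coloured by list, and the dashed line marks equal change. *Rhbg* lies at 1.04 and −0.80, below the line, *Wnt4* at 1.22 and 2.75 above it, and *Cyp2c54* at the lower left (−6.93 and −6.66).

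*Glul* and *Oat* share their substrates with 16 tested genes of glutamate, ornithine and proline metabolism, of which 4 rose and 7 fell in Cre mice on MCD and 3 rose and 8 fell in knockout mice. Over all tested genes 57.5% were called in Cre mice and 45% in knockout mice. The proline synthesis genes *Pycr1* (3.87 and 2.27) and *Aldh18a1* (3.47 and 1.48) rose in both genotypes, and the urea cycle enzyme *Otc* (−2.74 and −2.28) and the liver glutaminase *Gls2* (−1.66 and −1.40) fell in both. On MCD 6 of the 16 were lower in knockout mice and 1 higher, against 8.53% and 8.06% of all tested genes. The transporter *Slc1a4* had 9.47 ± 2.38 CPM in Cre mice and 2.11 ± 0.503 CPM in knockout mice (−2.16, adjusted p = 0.00025 from edgeR), and fell with MCD in knockout mice (−2.39). *Pycr1* (−1.46) was lower too. On chow 2 were higher, among them *Aldh18a1* (1.22), and 1 lower, *Glud1* (−0.50), glutamate dehydrogenase, where 8.62% of all tested genes were called. The interaction passed for 4 genes, among them *Slc1a4*, *Aldh18a1* and *Pycr1*, where 5.54% of all tested genes passed with a lower response. Each of the 4 had a lower response in knockout mice. *Slc38a3*, a glutamine transporter that counts among the pericentral genes as well, had the highest mean CPM of the list on chow (1603 in Cre and 1218 in knockout mice), and *Glud1* on MCD (1184 and 863).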

How the data were processed

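Liver mRNA of 22 mice was sequenced, 1 library per mouse, with 6, 5, 5 and 6 libraries in the groups Cre Chow, Cre MCD, knockout (liver-*Flcn*-/-) Chow and knockout MCD. The authors trimmed the reads with Trimmomatic, aligned them to GRCm38 with STAR, counted them per gene with HTSeq and deposited 1 table of raw read counts per gene, with no normalization. Strand setting, annotation release and any collapsing of duplicate reads are not given in the sources used here. Totals ran from 13751347 to 21144388 counts per library, and 0 columns of the table lacked a label. Within groups Spearman correlations were 0.939 to 0.994 and no pair of libraries was identical.

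Genes with a mean of at least 10 counts were kept (14062 of 55573) and fitted in edgeR 4.0.16 (R 4.3.3) with TMM factors and 1 mean per group. Its quasi-likelihood p-values are two-sided and were adjusted by the method of Benjamini and Hochberg across the 14062 genes, with a threshold of 0.05. The SE is the absolute log2 fold change divided by the square root of F. The steps were tested on simulated data. Alternatives used limma 3.58.1 (voom), DESeq2 1.42.0, other size factors and filters, only the groups compared, covariates (uniquely mapped share, sex), a replicate block, no chow libraries under 75% uniquely mapped, and each library left out. Females only, males only and library totals without TMM were added after seeing the data. Sex was read from *Xist* against Y-linked reads. Loci and overlaps are from GENCODE M21 (GRCm38), joined in Python 3.11.15 with pandas 2.3.3, and plots used matplotlib 3.10.9. The 10 genes, the other gene lists and the cell type markers were chosen with earlier results of these data known. Named were the 10 genes, in each other list and comparison at most the 4 called genes with the largest log2 fold change and at least 1 CPM, the most abundant gene of each list, the 5 genes most correlated with *Glul* and with *Axin2*, and *Flcn*. Some genes that this rule names are not reported here.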

Additional observations from a re-analysis of the deposited data

Results flagged for a closer look

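*Znrf3* in Cre Chow 6 had 11.6 CPM, apart from the other 5 mice of its group, of which the next highest had 9.13 CPM. The gap made up 0.697 of the group's range. It was the only such value among 44 groups of values examined, and chance alone marks about 1 in 20. *Rhbg* responded to the MCD diet differently in the genotypes, with an interaction of −1.85 (adjusted p = 0.0027 from edgeR, n = 22 libraries in the fit), since all 5 Cre mice on MCD were above all 6 Cre mice on chow while the knockout mice had lower values on MCD.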

How the results depend on the processing

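Of 490 values of single genes under other tests, filters, scalings and covariates, 463 kept their direction and side of the threshold, as did 1054 of 1100 with 1 library left out and 106 of 150 under the alternatives added after seeing the data. The number of the 10 genes called was 2 in males alone and 8 with library totals without TMM for MCD in Cre mice, where 4684 and 9648 of all 14062 tested genes were called (8089 in the reported fit). It was 5 under each of these in knockout mice, where 2916 and 7534 genes were called (6328). Between genotypes on chow it was 1 in males alone and with the uniquely mapped share as covariate (*Lect2* both times), with 339 genes called in males (1212), and on MCD it was 5 in males alone, where *Glul* and *Oat* joined and 687 genes were called (2333). The interaction was called for 2 genes with DESeq2, without the low-mapped chow libraries and with totals without TMM, where *Lgr5* joined *Rhbg*. With 1 library left out the counts were 5 to 6, 7 to 9, 0 to 0, 3 to 4 and 1 to 2 in the order of the text. Library totals without TMM moved the median of all tested genes to 0.43, 0.27, 0.12, −0.025 and −0.13.

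The replicate numbers did not pair the mice: same-numbered libraries had correlations from −0.55 to 0.47 over all pairs of groups (mean 0.0061). Between Cre and knockout mice on MCD all 5 were positive, from 0.062 to 0.26. With the replicate block the counts were 6, 8, 0, 3 and 1, *Oat* in Cre mice passed (−0.89), and no other call changed. The interaction has no fit of only the groups compared, since it needs all 4.

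Values of uncalled genes changed sign as follows. With the uniquely mapped share as covariate *Lgr5* (−0.10) and *Lect2* (−0.24) did in Cre mice and *Axin2* (−0.11) did with MCD in knockout mice. With the sex covariate the *Slc1a2* interaction was 0.016. Without low-mapped chow libraries *Axin2* with MCD in knockout mice was −0.23, on chow *Axin2* was 0.12, *Lgr5* 0.13 and *Slc1a2* −0.14, and the *Slc1a2* interaction was 0.21. In females alone *Lect2* in Cre mice was −0.040, *Axin2* in knockout mice −0.23, on chow *Axin2* 0.12, *Lgr5* 0.13 and *Slc1a2* −0.14, *Glul* on MCD 0.14, and the interactions of *Glul* 0.18 and *Slc1a2* 0.88. In males alone *Rnf43* in Cre mice was 0.23, *Lect2* in knockout mice 0.52, on chow *Oat* −0.095 and *Znrf3* −0.019, *Slc1a2* on MCD −0.68, and the interactions of *Axin2* 0.20, *Tbx3* −0.33 and *Znrf3* 0.065. With totals without TMM *Rnf43* in Cre mice was 0.30, on chow *Axin2* 0.11 and *Rnf43* 0.12, and the *Tbx3* interaction −0.071. Limma-voom gave −0.0021 for *Slc1a2* on chow and 0.16 for its interaction. *Axin2* with MCD in knockout mice was −0.00020 with filterByExpr and −0.0065 with only the groups compared, and *Rnf43* on chow was 0.0072 without a filter and 0.0025 with only the groups compared.

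With 1 library left out, sign changes were seen for *Axin2* with MCD in knockout mice (−0.12 to 0.090), on chow for *Axin2* (−0.13 to 0.083), *Oat* (−0.017 to 0.25), *Slc1a2* (−0.050 to 0.29) and *Rnf43* (−0.11 to 0.061), on MCD for *Slc1a2* (−0.10 to 0.40) and *Znrf3* (−0.042 to 0.15), and for the interactions of *Glul* (−0.25 to 0.040), *Slc1a2* (−0.21 to 0.32) and *Tbx3* (−0.051 to 0.23). The cause of these changes was not tested. *Rhbg* and *Lgr5* rest on 34 to 233 counts per library on MCD, which limits their precision.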
